A study of Mus musculus with 2 samples.

Results

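The Krüppel-like factor (KLF), specificity protein (SP) and early growth response (EGR) genes were examined in the ATAC-seq peaks of mouse cardiac progenitor cells (CPCs) at day 5 of differentiation. Members were the distinct peaks whose assigned gene symbol was Klf followed by digits, Sp followed by 1 digit, or Egr1 to Egr4, and 72 of 26232 distinct peaks met this rule. They belonged to 29 of the 15351 genes with a peak: 17 KLF genes with 42 peaks, 9 SP genes with 19 and 3 EGR genes with 11. ATAC-seq reads open chromatin through the Tn5 transposase, which inserts adapters into accessible DNA. The CPCs came from E14 mouse embryonic stem (ES) cells that carry the Tg(Nkx2-5-EmGFP) reporter, an EmGFP gene driven by Nkx2-5 control sequence, with C57BL/6 given as the strain in the labels. Both samples are day 5 CPCs without knockdown from separate differentiations of this 1 reporter line, no sorting of the cells is described for the ATAC-seq, and the Isl1 knockdown cells of the design were not analysed here. Because there was 1 group with 1 list of peaks shared by its 2 replicates, no value below has a replicate error or a test, and read depth was unknown.

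The KLF, SP and EGR proteins share a DNA-binding domain of C2H2 zinc fingers. KLF and SP proteins bind GC boxes and CACCC elements, EGR proteins bind a related GC-rich site, and members of different branches can compete for similar DNA. Some recruit co-activators such as p300, others the co-repressors CtBP or Sin3A. EGR genes are immediate early genes, switched on within minutes of a signal through serum response factor (SRF), which binds the CArG box together with ETS-family partners. Klf2, Klf4 and Klf5 act in ES cell self-renewal, and Sp5 and Sp8 act with Wnt signalling in the early embryo.

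To show the DNA behind the results, windows of 7 peaks are given, read from the mm9 genome on the strand of the named gene. None of them overlapped an annotated exon. The first 4 are the central 300 bp of peaks at Klf4, Sp8, Klf10 and Klf12, with GC boxes (GGGCGG on either strand, overlapping matches counted) in capitals. They show 1 peak over a start and 3 at growing distance from one. The first lies at chr4:55545453-55545752 on the minus strand and holds 4 GC boxes, from -404 to -105 bp of the Klf4 transcription start site (TSS). The Sp8 window, at chr12:120075054-120075353 on the plus strand, holds 6. The Klf10 window at chr15:38303583-38303882, minus strand, holds 4, and the Klf12 window at chr14:100684242-100684541, minus strand, holds 2.
Klf4 start: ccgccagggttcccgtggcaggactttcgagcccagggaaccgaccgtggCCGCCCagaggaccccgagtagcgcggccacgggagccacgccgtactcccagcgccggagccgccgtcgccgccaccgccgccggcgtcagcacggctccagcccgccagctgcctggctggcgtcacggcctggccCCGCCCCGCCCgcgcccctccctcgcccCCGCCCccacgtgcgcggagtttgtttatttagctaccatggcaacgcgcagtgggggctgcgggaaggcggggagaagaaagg
Sp8 upstream: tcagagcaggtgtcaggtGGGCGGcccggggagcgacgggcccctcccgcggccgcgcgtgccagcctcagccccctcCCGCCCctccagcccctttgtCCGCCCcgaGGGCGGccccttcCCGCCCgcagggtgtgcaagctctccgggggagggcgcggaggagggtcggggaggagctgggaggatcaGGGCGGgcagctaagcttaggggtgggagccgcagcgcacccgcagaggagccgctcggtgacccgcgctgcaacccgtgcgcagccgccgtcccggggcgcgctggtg
Klf10 far upstream: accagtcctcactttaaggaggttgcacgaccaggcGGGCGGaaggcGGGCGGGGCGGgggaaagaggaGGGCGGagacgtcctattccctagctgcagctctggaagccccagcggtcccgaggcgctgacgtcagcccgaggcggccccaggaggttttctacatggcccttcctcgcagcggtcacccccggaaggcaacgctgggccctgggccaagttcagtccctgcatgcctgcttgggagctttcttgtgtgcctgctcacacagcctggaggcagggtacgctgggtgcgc
Klf12 far upstream: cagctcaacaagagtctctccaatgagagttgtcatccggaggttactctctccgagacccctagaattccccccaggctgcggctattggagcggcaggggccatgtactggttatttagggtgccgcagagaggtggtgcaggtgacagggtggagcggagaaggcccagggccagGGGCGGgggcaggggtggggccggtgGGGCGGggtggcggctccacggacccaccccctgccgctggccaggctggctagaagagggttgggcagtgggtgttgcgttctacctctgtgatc

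The next windows show CArG boxes, the sites of SRF, in capitals. They come from the Egr2 start peak at chr10:67000202-67000291 and chr10:67000505-67000594 and from the Klf8 peak at chrX:149794064-149794133, all on the plus strand.
Egr2 distal CArG box: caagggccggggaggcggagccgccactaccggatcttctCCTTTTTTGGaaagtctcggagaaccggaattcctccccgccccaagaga
Egr2 proximal CArG box: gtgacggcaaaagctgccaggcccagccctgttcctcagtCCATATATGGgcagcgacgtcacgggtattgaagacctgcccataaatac
Klf8 CArG box: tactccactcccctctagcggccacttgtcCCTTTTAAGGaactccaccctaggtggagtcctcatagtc

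The last pair shows EGR sites (GCGTGGGCG on either strand) in the Egr3 peak nearest its own start, at chr14:70474868-70474936 and chr14:70475383-70475451 on the plus strand.
Egr3 first EGR site: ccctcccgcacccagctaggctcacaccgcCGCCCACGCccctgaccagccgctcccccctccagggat
Egr3 second EGR site: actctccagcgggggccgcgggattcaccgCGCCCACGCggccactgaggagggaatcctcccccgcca

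Nearly the whole family carried peaks. Of 31 genes on the roster Klf1 to Klf18, Sp1 to Sp9 and Egr1 to Egr4, 29 had at least 1 peak, where 60.7% of 21887 protein coding genes did. Egr4 had none, and the nearest peak of any gene lay 10105 bp from it and was assigned to Fbxo41. Klf18 had none and is not in the gene annotation used here. A gene without a line in the list is not thereby a gene in closed chromatin, since a region called in 1 replicate alone was not kept.

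Peaks per gene ranged from 1 to 8. Klf4 had 8 peaks, Egr3 had 7, Klf12 had 6, Klf10 had 5 and Sp8 had 4. Klf5, Klf7, Klf9, Sp5 and Sp9 had 3 each. There were 2 peaks at each of Klf3, Klf13, Klf14, Sp2, Sp3, Sp7, Egr1 and Egr2. A single peak was assigned to Klf1, Klf2, Klf6, Klf8, Klf11, Klf15, Klf16, Klf17, Sp1, Sp4 and Sp6. In all, 10 of the 29 genes (34.5%) had 3 or more peaks, against 16.5% of all genes with a peak. The mean was 2.48 peaks per gene and the median 2, beside 1.71 and 1 over all genes. Only 0.580% of all genes had as many peaks as Klf4 and 0.977% as many as Egr3. Other families of transcription factor genes stood on either side: 316 Zfp zinc finger genes had a mean of 1.59, 18 Nr nuclear receptor genes 2.06 and 34 Fox forkhead genes 2.85.

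**Figure D1:**
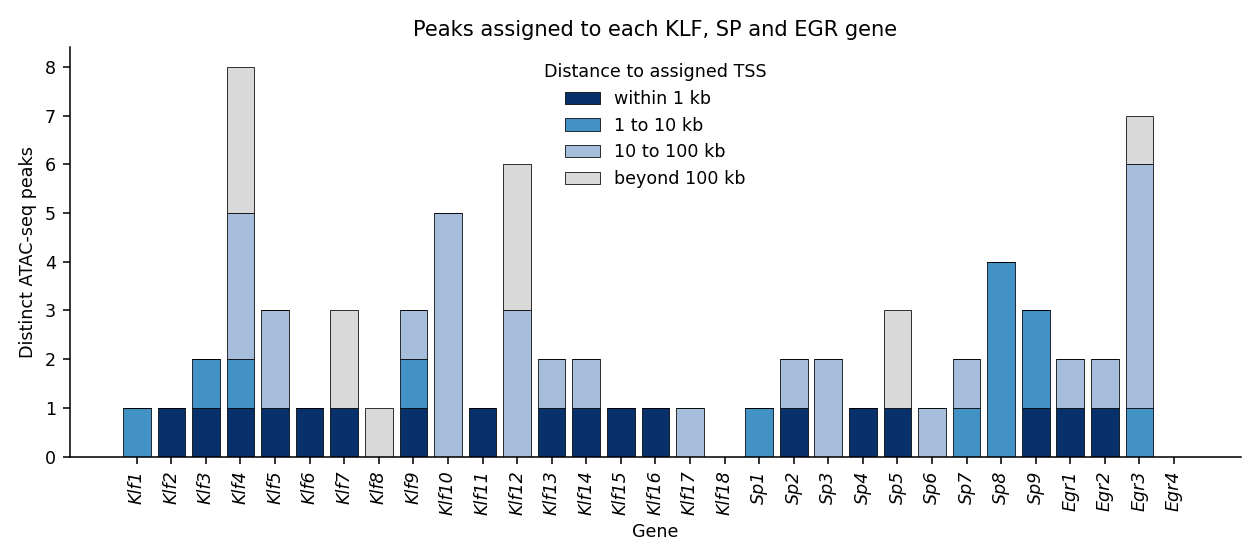
Number of distinct ATAC-seq peaks (y axis) assigned to each of the 31 roster genes (x axis), with bars divided by the distance of the peak midpoint from the assigned TSS. Klf4, Egr3, Klf12 and Klf10 have 5 to 8 peaks, most of them beyond 10 kb, and Egr4 and Klf18 have none.

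Most of these peaks lay away from the start they were assigned to. Distance here is the deposited, signed distance from a TSS to the peak midpoint, negative where the peak is upstream. Within 1 kb lay 18 of 72 peaks (25%, 95% Wilson interval 16.4% to 36.1%), against 44.9% of all peaks. Within 10 kb lay 31 (43.1%), against 58.6% of all peaks. A further 29 lay 10 to 100 kb away, and 12 (16.7%) lay beyond 100 kb, against 8.20% of all peaks. The median distance on either side was 19321.5 bp for the members and 4154 bp over the list. Intervals cover counting error over peaks only. The share within 1 kb was 57.2% for Zfp genes, 37.8% for Nr genes and 29.9% for Fox genes, so the KLF, SP and EGR genes stood nearest to the Fox genes.

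The members beyond 1 kb lay mostly upstream. Of 54 such peaks, 37 (68.5%, interval 55.3% to 79.3%) were upstream and 17 downstream, where 44.2% of all peaks beyond 1 kb were upstream. The share was 69.6% for Nr genes, 49.3% for Zfp genes and 36.8% for Fox genes, so that the Nr genes had as large a lean. Egr3, with 7 upstream peaks, contributed to this, and without it 30 of 47 (63.8%, interval 49.5% to 76.0%) were upstream. For 51 of the 54, no TSS of another coding gene lay between the peak and the assigned start, and the share, 94.4%, was like the 92.3% of 11229 peaks beyond 1 kb that were assigned to annotated coding genes. Assignment to the nearest TSS largely fixes this share in advance, so it says little about these genes. By midpoint, 44 of the 72 members (61.1%) were intergenic and 14 (19.4%) intronic, against 42.2% and 31.2% of all peaks. Coding exons and untranslated exon sequence held 7 each (9.72%), against 8.88% and 17.8%. Assignment rests on the nearest TSS alone, so a peak named here for a gene is not shown to act on it. In the gene models used here, some members lay nearer another coding start. This start was that of Gm17671 for the Sp1 peak (1954 bp away), Sp2 for the Sp6 peak (14402 bp) and Gm11084 for the Sp3 peaks. It was that of Myo3b for the farthest Sp5 peak (182439 bp) and Gm17507 for the Egr1 peak at 26246 bp (22345 bp).

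**Figure D2:**
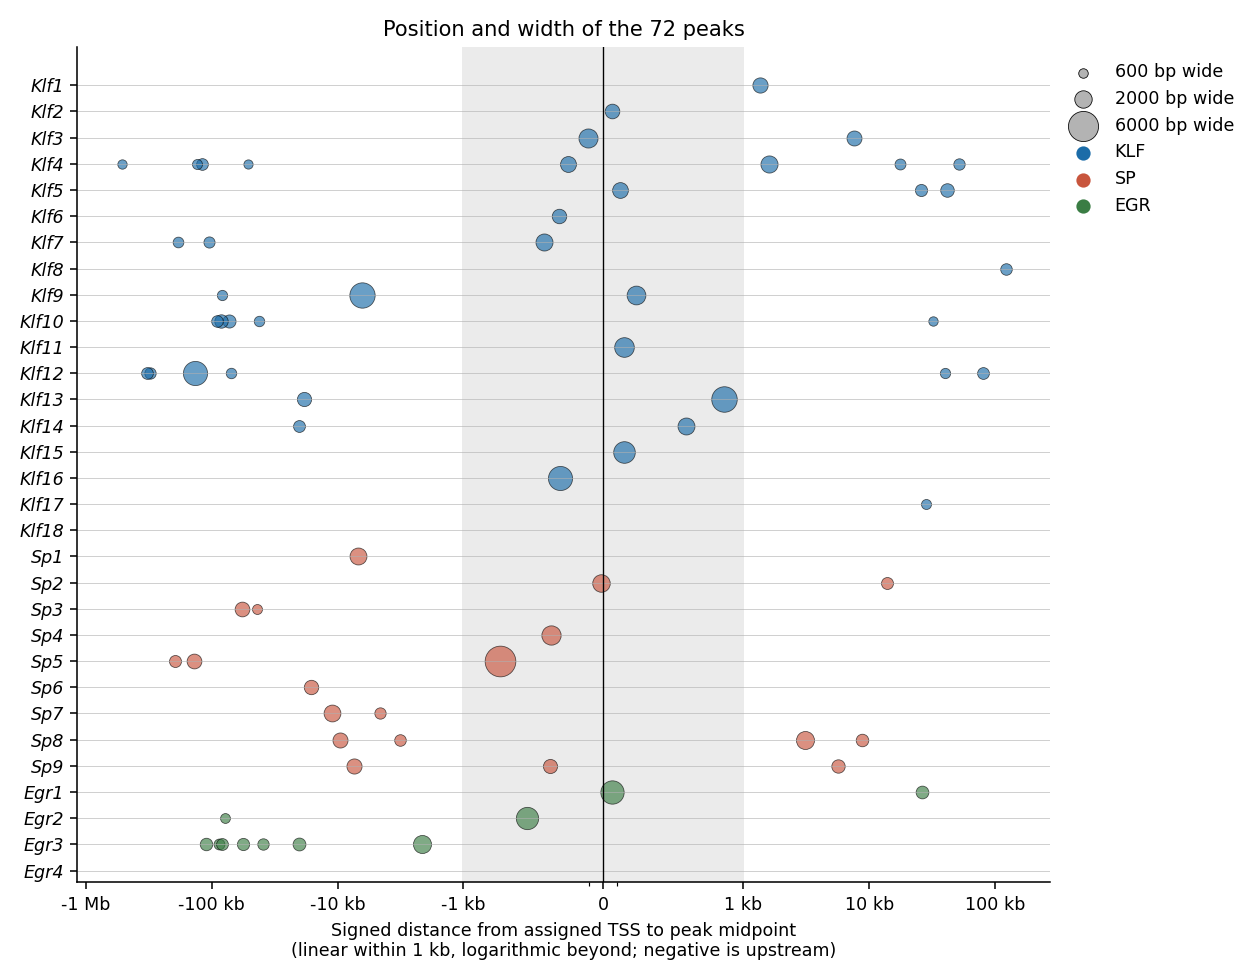
Signed distance in bp from the assigned TSS to the midpoint of each of the 72 peaks (x axis, linear within 1 kb and logarithmic beyond) for each gene (y axis), with point area in proportion to peak width and the shaded band marking 1 kb on either side. Of the points outside the band, 37 lie upstream and 17 downstream.

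At the starts themselves, the open regions of these genes were broad at the median, though not in every subgroup. The 18 start peaks, those within 1 kb, were 2372 bp wide at the median, with quartiles of 1732 and 3241 bp and a range of 1319 to 6239 bp. All 11772 peaks within 1 kb had a median of 1326 bp and quartiles of 1072 and 1691 bp. Wider than 2 kb were 11 of the 18 (61.1%, interval 38.6% to 79.7%), against 13.3% of all peaks within 1 kb. The 5 start peaks at Klf2, Klf4, Klf5, Klf6 and Klf7 were 1391 to 1927 bp wide, with a median of 1648 bp, so none passed 2 kb. Those of the Sin3A-binding KLF genes had a median of 2554 bp. All 18 were CpG-rich, with 50% GC or more and at least 0.6 of the CpG count that base composition predicts, and the 7991 CpG-rich peaks within 1 kb of any gene had a median of 1371 bp, with 13.2% wider than 2 kb. The corresponding medians were 1151 bp for Zfp genes, 1583 bp for Nr genes and 1947 bp for Fox genes. Away from starts the widths were like those of the list, with a median of 910 bp for the 41 members beyond 10 kb and 880 bp for all such peaks. Over all 72 members the median was 1165 bp, beside 1081 bp for the list.

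Among the members, 8 reached the 99th percentile of width in the list, 3068 bp. They were Sp5 (6239 bp), Klf13 (4313 bp), Klf9 (4250 bp), Klf12 (3869 bp), Klf16 (3849 bp), Egr1 (3602 bp), Egr2 (3290 bp) and Klf15 (3092 bp). The Sp5 peak ranked 7 of 26232 by width. Of these 8 peaks, 6 lay within 1 kb of the assigned start. The exceptions were the Klf9 peak, 6369 bp upstream, and the Klf12 peak, 135376 bp upstream, which ranked 3 of 2152 peaks beyond 100 kb. The narrowest member was a Klf4 peak of 568 bp.

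**Figure D3:**
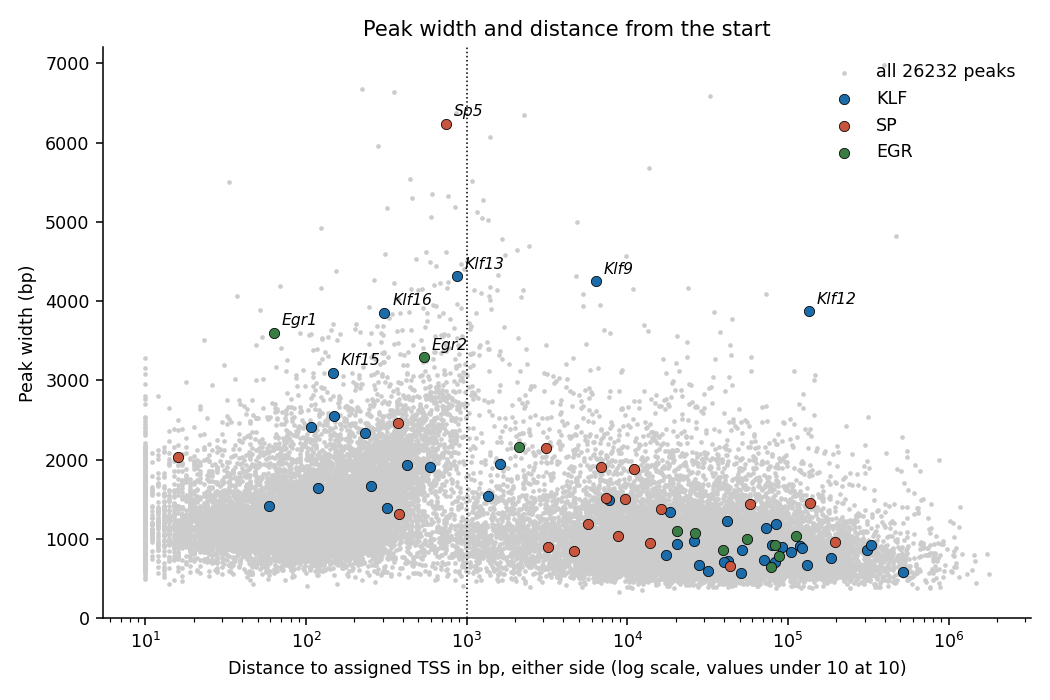
Peak width in bp (y axis) against distance to the assigned TSS in bp on either side (x axis, log scale), with all 26232 peaks in grey, the 72 members in colour by family and a dotted line at 1 kb. The 8 named peaks are at least 3068 bp wide, and the members beyond 10 kb lie among the grey points apart from Klf12.

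A peak within 1 kb was found at 18 of the 29 genes (62.1%), against 74.6% of all genes with a peak, and 11 genes had peaks only farther away: Klf1, Klf8, Klf10, Klf12, Klf17, Sp1, Sp3, Sp6, Sp7, Sp8 and Egr3. Klf8 and Sp3 were nevertheless open at a start. The Klf8 peak, 891 bp wide and assigned to a TSS 121588 bp upstream of it, covered another annotated Klf8 start. A peak of 2971 bp at chr2:72816393-72819363, assigned to the antisense gene Sp3os, covered the start of Sp3. Counting any peak over any annotated start, 20 of the 30 annotated genes had one, where 55.7% of 22367 coding genes did. The genes Klf1, Klf10, Klf12, Klf17, Sp1, Sp6, Sp7, Sp8, Egr3 and Egr4 had none.

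The genes without an open start fell into those with and without a CpG-rich promoter, by the same limits from 500 bp before to 500 bp after the 5′-most start. Of the 22 roster genes with a CpG-rich promoter, 18 (81.8%) had a peak there (interval 61.5% to 92.7%), against 89.5% of all 9879 CpG-rich coding promoters. The remaining 4 were Klf10, Sp1, Egr3 and Egr4. Their promoters lay 30618, 5721, 1033 and 10105 bp from the nearest peak, so the nearest listed peak was close to Egr3 and far from Klf10. Of the 8 genes with a CpG-poor promoter, 0 had a peak there, which allows a share of up to 37.5%, against 25% of all 12488 coding promoters that were not CpG-rich. Sp2 and Klf8, both among these 8, had a peak over another of their annotated starts. The class rests on the 5′-most start alone. Over 300 bp at the covered Sp2 start, GC was 59.7% and CpG 0.945 of the predicted count. At an Sp8 start without a peak the values were 61% and 1.19.

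**Figure D4:**
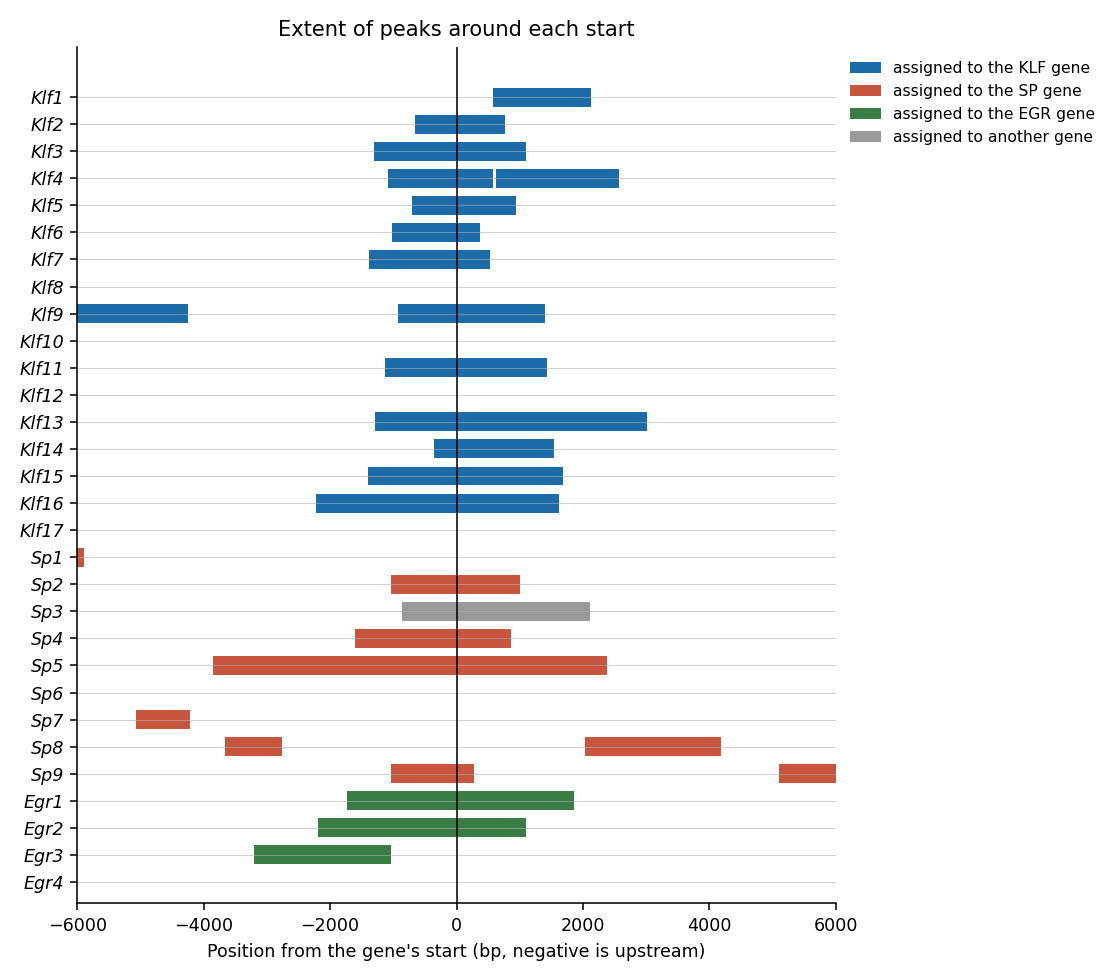
Extent in bp of all peaks from 6000 bp upstream to 6000 bp downstream of the start of each of the 30 annotated genes, where the start is the deposited TSS for genes with a member within 10 kb and the 5′-most annotated start otherwise. Bars in colour were assigned to the gene itself and grey bars to another gene, as for Sp3, and the Klf8 peak at a later start falls outside the window.

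Among the mainly activating KLF genes, Klf2, Klf4, Klf5, Klf6 and Klf7 had a peak within 1 kb and Klf1 did not. Klf4 encodes a reprogramming factor, and its annotated starts were covered by a pair of peaks 45 bp apart. The assigned start lay in the upstream peak, and the downstream peak covered another annotated start. The peak at chr4:55544767-55546439 had its midpoint 255 bp upstream and was 1673 bp wide, and the peak at chr4:55542772-55544721 had its midpoint 1601 bp downstream and was 1950 bp wide. Beyond the gene, peaks of 796 bp at chr4:55527448-55528243 and 863 bp at chr4:55492906-55493768 lay 17502 and 52011 bp downstream. Upstream, all 4 Klf4 peaks were under 1 kb wide. They were chr4:55596373-55596940 at 51309 bp (568 bp wide), chr4:55663573-55664482 at 118680 bp (910 bp), chr4:55676423-55677092 at 131410 bp (670 bp) and chr4:56062717-56063301 at 517661 bp (585 bp), the last being the farthest of all members. The 6 Klf4 peaks away from the start were thus all narrower than the list median of 1081 bp.

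Klf5, which acts in ES cells and in smooth muscle, had a start peak of 1648 bp at chr14:99697205-99698852, 118 bp downstream of the TSS. Its other peaks were both downstream: chr14:99723418-99724397 at 25997 bp (980 bp wide) and chr14:99738772-99739993 at 41472 bp (1222 bp). Klf7, known for its role in neurons, showed the mirror image, with distal peaks upstream. Its start peak was chr1:64167427-64169353 at 426 bp upstream (1927 bp wide), and the others were chr1:64272504-64273333 at 104955 bp (830 bp) and chr1:64351904-64352661 at 184319 bp (758 bp). Klf2, a flow-responsive factor of endothelium, and Klf6 each had 1 peak, over the start, of 1421 and 1391 bp. Klf1, the activator of globin genes in red cells, had 1 peak of 1544 bp at chr8:87426412-87427955, with its midpoint 1356 bp downstream in a coding exon. Klf1 therefore fell just outside the 1 kb limit, and Klf13, at 865 bp, was the member just inside it.

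Of the CtBP-binding repressor genes Klf3, Klf8 and Klf12, Klf3 alone had a peak within 1 kb of its assigned start, 2411 bp wide. Klf12 carried 6 peaks and none over its start, the nearest being 39999 bp from it. Inside the gene lay chr14:100508665-100509368 at 39999 bp (704 bp wide, midpoint in a coding exon) and chr14:100468548-100469473 at 80005 bp (926 bp, intron). Upstream, in a stretch without other coding starts, lay chr14:100619408-100620137 at 70757 bp (730 bp), chr14:100682458-100686326 at 135376 bp (3869 bp), chr14:100858077-100858935 at 309490 bp (859 bp) and chr14:100876640-100877557 at 328083 bp (918 bp). The wide peak differed from the other 5 in more than its width. It had 57.9% GC, and the others had 43.0% to 48.1%. Over whole peaks, which differ in length, it held 11 GC boxes and the others at most 1. In the central 300 bp, printed above for the wide peak, it held 2 and the others again at most 1. The nearest annotated start of any gene type, a pseudogene, was 65687 bp from the midpoint of the wide peak. Klf5 and Klf12 are neighbours 557 kb apart, with no coding gene between them.

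The Sin3A-binding repressor genes had start peaks at Klf9, Klf11, Klf13, Klf14 and Klf16, of 1910 to 4313 bp, and none at Klf10. Klf9, a target of glucocorticoid and thyroid hormone, had a start peak of 2333 bp at chr19:23214784-23217116, 233 bp downstream of the TSS. A wider region of 4250 bp at chr19:23207223-23211472 lay 6369 bp upstream, over the start of the non-coding transcript 2410080I02Rik, and another of 704 bp at chr19:23131961-23132664 lay 83404 bp upstream. Klf10, a TGF-beta inducible gene, had 5 peaks, all beyond 30 kb. Downstream lay chr15:38198259-38198848 at 31913 bp (590 bp wide). Upstream lay chr15:38272480-38273205 at 42376 bp (726 bp), chr15:38303163-38304303 at 73266 bp (1141 bp), chr15:38313954-38315148 at 84084 bp (1195 bp) and chr15:38321310-38322210 at 91293 bp (901 bp). The peak at 84084 bp covered the start of the lincRNA Gm17721. The next peak towards Klf10, whose centre is printed above, held a CArG box besides its GC boxes. Klf15, which acts in heart metabolism, had 1 peak of 3092 bp over its start, and Klf17, a gene of the early embryo, had 1 peak of 667 bp at 28008 bp downstream.

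In the SP family, Sp2 and Sp4 among Sp1 to Sp4 had a peak within 1 kb. The Sp2 peak, chr11:96838002-96840036, was the member nearest to a start, at 16 bp upstream, and was 2035 bp wide. Sp4 had 1 peak of 2461 bp, and Sp3 was covered only by the Sp3os peak. Sp1, the founding member, had 1 peak of 1903 bp, 6846 bp upstream of its start. The developmental members Sp5 to Sp9 had 13 peaks, with 2 of them within 1 kb, at Sp5 and Sp9. Sp6, which acts in teeth and skin, had 1 peak 16209 bp upstream. Sp7 (osterix), the bone regulator, had 2, at 4640 and 11071 bp upstream.

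Sp5, a direct Wnt target, had the widest member, chr2:70309120-70315358, which was 6239 bp wide and had its midpoint 742 bp upstream of the TSS. This interval ran from before the start into the gene and was longer than the annotated gene, at 2807 bp. Its other peaks, chr2:70175176-70176624 at 137081 bp (1449 bp wide) and chr2:70116316-70117272 at 196187 bp (957 bp), were upstream in introns of Myo3b, an unconventional myosin gene. Sp8, a regulator of limb outgrowth, showed a different layout: all 4 peaks lay within 10 kb, on both sides, and none covered an annotated start. Upstream were chr12:120074450-120075957 at 9599 bp (1508 bp wide) and chr12:120081141-120082034 at 3215 bp (894 bp). Downstream were chr12:120086837-120088982 at 3107 bp (2146 bp, midpoint in a coding exon) and chr12:120093063-120094105 at 8781 bp (1043 bp). Sp9, its close relative, had a similar spread but with the start covered. Its peaks were chr2:73101846-73103366 at 7378 bp upstream (1521 bp wide), chr2:73108944-73110262 at 381 bp upstream (1319 bp) and chr2:73115081-73116269 at 5691 bp downstream (1189 bp). The Sp9 start peak was the narrowest of the 18 peaks within 1 kb.

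The EGR genes divided into Egr1 and Egr2, with wide start peaks, and Egr3, with open chromatin all upstream. The Egr1 start peak was 3602 bp wide, with its midpoint 63 bp downstream of the TSS, and a second peak of 1077 bp lay 26246 bp downstream. Egr2 (Krox20), a regulator of hindbrain and of myelination, had a start peak of 3290 bp at chr10:66998430-67001719 and one of 645 bp 78779 bp upstream. For Egr3, a factor of muscle spindles and lymphocytes, the nearest peak was chr14:70474055-70476219, 2116 bp upstream and 2165 bp wide, and it ended 1033 bp short of the annotated start. The other 6 lay in introns of the upstream gene Pebp4 and were 786 to 1101 bp wide. They were chr14:70456383-70457483 at 20320 bp (1101 bp), chr14:70437713-70438579 at 39107 bp (867 bp), chr14:70420923-70421916 at 55833 bp (994 bp), chr14:70394265-70395192 at 82524 bp (928 bp), chr14:70388925-70389710 at 87935 bp (786 bp) and chr14:70365126-70366163 at 111608 bp (1038 bp). Their distances describe the nearest TSS, which for each of them was that of Egr3 rather than that of Pebp4.

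Among the 72 peaks, the start peaks of Egr1 and Egr2 held the most CArG boxes. The Egr1 start peak held 5, at -403, -365, -349, -101 and -79 bp from the TSS, and the Egr2 start peak held the 2 printed above, at -371 and -68 bp. Of 22367 coding genes, 4.31% had at least 1 CArG box within 500 bp of the 5′-most start, 36 had at least 2, and Egr1 was the only one with 3 or more. Egr2 had 0 by this measure, since its 2 boxes lay 2024 and 2327 bp downstream of its 5′-most start, close to the start its peak was assigned to. Among 118 peaks within 1 kb of a start and within 500 bp of the Egr1 peak in width, 1 held as many, the Egr1 peak itself. Among 226 such peaks like the Egr2 peak, 3 held 2 or more, the Egr2 peak included. Over all members, 10 of 72 peaks (13.9%) held a CArG box, against 5.29% of all peaks. Besides Egr1 and Egr2 they were at Klf7, Klf8, Klf10 (2 peaks), Klf12, Klf13, Sp1 and Egr3. This count is over whole peaks and is not matched for width. The median width was 1165 bp in members and 1081 bp over the list, and 2372 against 1326 bp within 1 kb of a start. In the central 300 bp, 1 of 18 members within 1 kb (5.56%) and 2 of 54 beyond (3.70%) held one, against 0.671% and 1.74% of all peaks. These few peaks were at Egr1, and at Klf8 and Klf12. A match of letters does not show that SRF was bound.

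The GC box, the site of the SP and KLF proteins themselves, was counted in the central 300 bp of each peak. Within 1 kb of a start it was found in 13 of 18 members (72.2%, interval 49.1% to 87.5%) and in 66.5% of all peaks. Beyond 1 kb it was found in 25 of 54 members (46.3%, interval 33.7% to 59.4%) and in 21.7% of all peaks. GC content bears on such a motif: the median was 53.6% GC in members beyond 1 kb and 51.4% in all peaks there. By GC content, the share with a GC box was 3 of 13 members (23.1%) and 10.7% of all peaks at 45% to 50% GC, and 4 of 17 (23.5%, interval 9.56% to 47.3%) and 19.8% at 50% to 55%. It was 12 of 16 (75%, interval 50.5% to 89.8%) and 38.4% at 55% to 60%, and 6 of 6 and 57.0% at 60% to 66%. The shares stood farther apart in the GC-richer classes than at 50% to 55%. CACCC elements, bound by the KLF proteins, were found in 10 of 18 members within 1 kb (55.6%) and 36 of 54 beyond (66.7%), against 66.3% and 62.2% of all peaks.

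In promoter sequences of 300 bp from RefSeq (GRCm38.p6), which span a start and lie mostly upstream of it, 20 of 32 promoters of 22 of these genes (62.5%) held a GC box and 26 (81.2%) a CACCC element. The shares among all 32851 promoters were 35.7% and 57.5%. These promoters are not independent, since 5 belong to Egr2 and 3 each to Sp2 and Sp8, some of them overlapping. The shares were not matched for GC content. EGR sites were rare in every class: 0 of 18 members within 1 kb held one in the central 300 bp, which allows a share of up to 16.7%, and 0 of 54 beyond, up to 5.56%, against 1.16% and 0.242% of all peaks. Over whole peaks, 2 of 72 members held one, at Klf4 and Egr3, against 2.08% of all peaks. The Egr3 peak held the 2 printed above, at -2351 and -1836 bp from its start, and 9 of 3601 peaks of similar width held 2 or more. The GATA site AGATAA was found in 3 of 54 members beyond 1 kb (5.56%, interval 1.91% to 15.1%), against 14.6% of all peaks. The homeodomain core TAATTA was in 2 of 54 (3.70%) against 4.67%, and the cyclic AMP response element TGACGTCA in 1 of 54 (1.85%) against 0.657%.

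**Figure D5:**
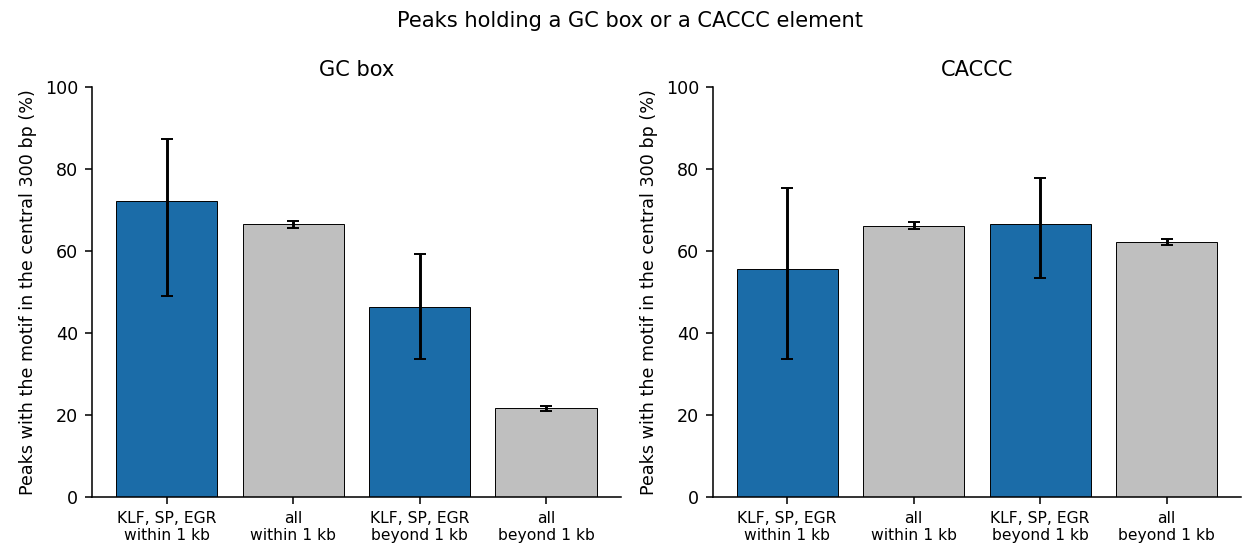
Share of peaks in percent (y axis) with a GC box (left) or a CACCC element (right) in the central 300 bp, for members and for all peaks, within and beyond 1 kb of the assigned start, with bars from 0 and 95% Wilson intervals of counting error. Beyond 1 kb the GC box share is 46.3% in members and 21.7% in all peaks, and the 4 CACCC shares lie between 55.6% and 66.7%.

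Genes whose products work with these factors were also examined. All 17 on a list of co-factors and upstream regulators had a peak, beside the 60.7% of coding genes given above, and 14 (82.4%, interval 59.0% to 93.8%) had one within 1 kb, close to the 74.6% of all genes with a peak. The 14 were Ctbp1, Ctbp2, Sin3b, Hdac1, Hdac2, Ep300, Crebbp, Wt1, Srf, Elk1, Elk3, Elk4, Wwp1 and Fbxw7. The EGR co-repressor genes Nab1 and Nab2 had theirs at 68357 and 8450 bp. The Sin3a peak had its midpoint 1254 bp upstream and, being 5279 bp wide, extended over the assigned start. Srf, the factor of the CArG box, had 1 peak, of 2471 bp. The population was labelled as CPCs, and 6 of 7 cardiac progenitor marker genes had a peak (Isl1, Nkx2-5, Gata4, Tbx5, Mef2c and Myocd, not Hand2). So did 2 of 3 pluripotent marker genes (Nanog and Sox2, not Pou5f1) and 2 of 2 neural ones (Pax6 and Sox1). Of the endothelial or blood marker genes, 2 of 3 had a peak (Kdr and Tal1, not Gata1). The share over all coding genes was 60.7%. Peaks do not measure expression, and which cells in the culture carried each peak was not tested.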

How the data were processed

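Open chromatin was profiled by ATAC-seq in day 5 CPCs, 1 group of 2 replicates from separate differentiations. Per the labels and the study's methods, the authors mapped reads to mm9 with bowtie2, filtered them with samtools, removed duplicates with Picard 1.136 and called peaks with MACS14 in each replicate. They dropped blacklisted regions and kept peaks that overlapped between the replicates by at least 1 bp, with bedtools 2.15. HOMER assigned the nearest TSS, a step described for ChIP-Seq. Shifting of reads for Tn5 was not mentioned.

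The deposited file holds peak starts, ends and signed distances to a TSS in bp, with no counts, score or value per replicate, so depth per sample is unknown. A width therefore also reflects the peak caller and the depth of 1 replicate.

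The 26429 lines gave 26232 distinct intervals, and none of the 72 members stood on more than 1 line. Sequence came from NCBIM37 (mm9) and gene models from GENCODE vM1. The deposited distance of 56 members matched an annotated TSS of the gene within 1 bp. RefSeq gene and promoter tables (GRCm38.p6) served for names and sequence, and the 32 promoters of 22 roster genes were each placed on mm9 by a unique exact match. Motifs were counted on both strands, overlaps included. The motif and naming steps were tested on simulated data. Analyses used Python 3.11.15, numpy 2.4.6, scipy 1.17.1, pysam 0.24.0 and matplotlib 3.10.9.

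No test was run, as there is 1 group. Shares carry 95% Wilson intervals of counting error only, and a share of 0 is limited at 3 counts. Every roster gene was named with its number of peaks. Coordinates were given for every peak of genes with 3 or more peaks and for the widest, narrowest, nearest and farthest member. The peak of Klf1, windows printed as sequence and the start peaks of Sp3 and Egr2 were added after their values were seen. Members and lists were chosen with earlier results of these data known. Alternatives counted every line, restricted peaks by width, left out each family and changed distances, gene extents and motifs.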

Additional observations from a re-analysis of the deposited data

How the results depend on the processing

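With 1 group and 1 shared peak list, no replicate could be left out. No paired analysis was possible because the samples form 1 group. Of 42 alternative values for 8 results, 36 stayed within the counting interval of the reported value or within 1.5 times a reported count, and 6 moved. Some of the 36 could not move. No member stood on more than 1 line, none was under 500 bp wide, and all 18 start peaks exceeded the list median of 1081 bp. Keeping only peaks over 1081 bp, the median width of the list, gave 38 member peaks in place of 72, a share within 1 kb of 47.4% in place of 25%, and a median width of 1890 bp in place of 1165 bp. Leaving out the KLF genes left 30 peaks. The share of start peaks with a GC box, 72.2% in the central 300 bp, was 100% over whole peaks, which are longer, and 22.2% with the longer box GGGGCGGGG. The share within 1 kb ranged from 19.4% at 500 bp to 33.3% at 5 kb and was 27.8% from the nearest annotated start of the same gene. Without Klf4 (chosen after seeing the data) the mean was 2.29 peaks per gene, and without Sp5 (likewise) the median width of peaks within 1 kb was 2333 bp. The number of genes with a peak over an annotated start by any assignment was 20, beside 18 with a peak within 1 kb. Precision is limited by the 18 start peaks and 29 genes, and read depth, a region open in 1 replicate alone and the strength of a peak were not analysed here.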
